A study of Drosophila melanogaster with 4 samples.

Results

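The ecdysone early puff locus 74EF to 75B is an interval of 600 kb on chromosome arm 3L of Drosophila melanogaster, from 17.5 to 18.1 Mb on FlyBase release 5. It was set so as to hold the genes Eip74EF and Eip75B, and its members are all regions of H3K79me3 enrichment that overlap it. They numbered 28 of 5114 regions in ChIP replicate 1 and 30 of 4689 in ChIP replicate 2. A series-wide list, which the authors deposited for the replicate set, held 27 of 5331. The interval was defined by coordinates, but it was picked with measured values from these lists in view. The full set of those values is not recorded, but scores and widths are taken to be among them. The width, score, rank and coverage of its regions, and the agreement of the replicates on them, are therefore given as a description and without a test.

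The data are chromatin immunoprecipitation followed by sequencing (ChIP-seq) on wild-type larvae of the Oregon-R strain (Oregon-R-modENCODE) at the 3rd instar, the last larval stage. The 2 ChIP samples were taken with a rabbit polyclonal antibody raised against histone H3 trimethylated at lysine 79, and the 2 input samples are unselected DNA. Values of the input samples were not analysed here. The labels name no tissue and give the age no closer than the instar, so a mark carried by few cells and a weak mark in many cells cannot be told apart.

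Ecdysone is the steroid hormone that times moulting and metamorphosis in insects. In the salivary glands of late larvae, whose giant polytene chromosomes can be seen under the microscope, a rise in ecdysone opens a small set of early puffs, sites of intense transcription, and those at 74EF and 75B are classic examples. Eip74EF encodes transcription factors with an ETS DNA-binding domain, and Eip75B encodes nuclear receptors of the Rev-Erb type that bind heme. Their products regulate later puffs and the early genes themselves. Methylation of lysine 79 of histone H3 lies in the body of the nucleosome, is made by the enzyme grappa (the fly Dot1) and generally accompanies transcription.

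The deposited lists name no genes. A RefSeq gene table on release 6 matched both members by symbol and was used only for the order of genes, because coordinates of the releases were not mixed. In that table Eip74EF comes before Eip75B along the arm, with 60 genes between them, 48 of them protein-coding. Eip74EF is flanked by CycT, which encodes the cyclin partner of the elongation kinase P-TEFb, and CG7542 on its outer side, and by Vps60 and anchor on its inner side. Next to Eip75B come 2 long non-coding RNAs (lncRNA:CR43174 and lncRNA:CR45393) on the inner side, and CG44006 and CG44005 on the outer side. Another 4 genes, CG32192, CG42393 and 2 non-coding RNAs, are nested within Eip75B. No region below is assigned to a gene, and the lower and upper parts of the interval are named only by their coordinates.

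H3K79me3 regions covered nearly as much of the interval as they left free. Replicate 1 covered 46.2%, replicate 2 covered 46.9% and the series-wide list 49.1%, with a mean of 46.5 ± 0.497% over the replicates (SD, n = 2). The interval is described here in 4 parts, drawn after the regions were seen. Their limits are the longest gap of both replicates and the widest series-wide region. The empty gap and the near-complete cover of that region therefore follow from how the parts were drawn. Replicate 1 covered 59.2% of a densely marked lower stretch of 163 kb, and replicate 2 covered 61.2%. Then came 128 kb without any region in either replicate. In the next 146 kb, up to the widest region, coverage was 38.1% for replicate 1 and 37.9% for replicate 2. The upper part held the widest region, of which replicate 1 covered 98.4% and replicate 2 covered 99.0%, and 57.5 kb above it, of which they covered 37.3 and 38.5%.

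**Figure D1:**
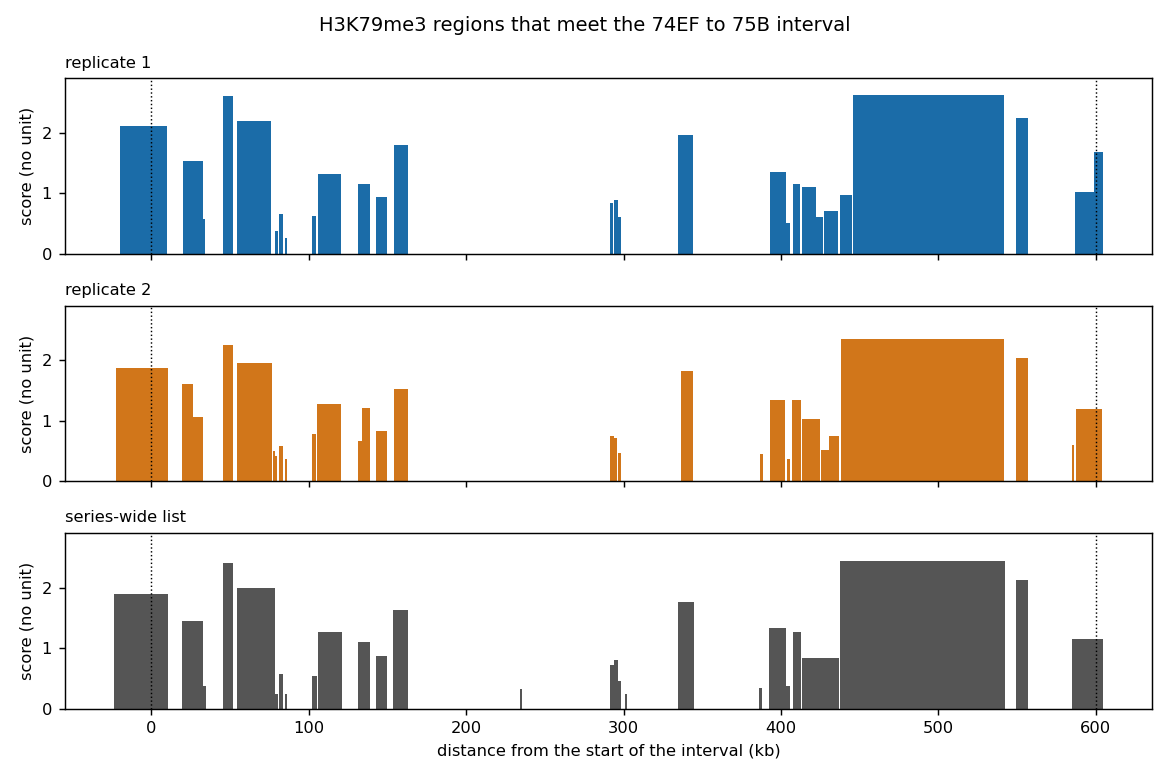
Regions of H3K79me3 enrichment that meet the interval, by distance from its start in kb (horizontal axis) and by deposited score, which has no stated unit (vertical axis), in replicate 1, replicate 2 and the series-wide list. Bar width is region width, dotted lines mark the ends of the interval, and the widest region spans 104959 bp in the series-wide list.

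The widest member lay in the upper part, from 17937562 to 18042520 in the series-wide list. Replicate 2 called 1 region of 103875 bp with a score of 2.36, which ranked 3 of 4689 by score. Replicate 1 called 2 regions separated by a break of 874 bp. The upper of these spanned 96079 bp with a score of 2.62, which ranked 5 of 5114, and the lower spanned 7273 bp with a score of only 0.976. The outer edges were nearly the same in both libraries: the starts differed by 335 bp and the ends by 16 bp. This was the widest region of each list, and the next widest anywhere measured 57.4 kb (replicate 1), 57.9 kb (replicate 2) and 67.2 kb (series-wide). It also scored high among wide regions, ranking 1 of the 180 of at least 20 kb in replicate 1 and 2 of the 179 in replicate 2. It held 34.7% of the covered length of the interval in replicate 1 and 36.9% in replicate 2.

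A region of the lower part scored about as high while being far narrower. It ran from 17545508 to 17551628 in the series-wide list, 6121 bp wide, with a score of 2.41. By score it ranked 5 in that list, 7 in replicate 1 (2.62) and 9 in replicate 2 (2.25), whereas by width it ranked 1673, 1539 and 1515. Each replicate called it as 1 piece. Replicate 1 covered 97.9% of it and replicate 2 covered 97.1%, and 95.0% was covered by both jointly. Its neighbour from 17554328 to 17578256, 23929 bp wide with a score of 1.99, ranked 122 by score in the series-wide list. Replicate 1 gave that neighbour 1 piece of 21294 bp (score 2.20), and replicate 2 gave it 2 pieces, the wider of 22102 bp (score 1.96).

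Of the 5 highest-scoring members, the other 2 lay at or near the ends of the interval. Above the widest region, the one from 18048964 to 18057020 had a score of 2.13 and ranked 48 in the series-wide list. It was 1 piece in each replicate, 7968 bp with a score of 2.24 in replicate 1 and 8024 bp with a score of 2.03 in replicate 2. At the lower edge, the region from 17476292 to 17510476 crossed the start of the interval, was 34185 bp wide and ranked 205 with a score of 1.90. Replicate 1 met it with 2 pieces, the wider of 29789 bp (score 2.11), and replicate 2 with 1 of 32562 bp (score 1.87). In each list 6 members, those of the regions described so far and 1 more, were among the top 10% by score. Scores above the median of the own list were found for 16 of the 28 members of replicate 1, 15 of 30 of replicate 2 and 17 of 27 of the series-wide list.

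Width and score did not go together everywhere in the locus. The region from 17913420 to 17936874, singled out after its values were seen, lies directly below the widest one, with 687 bp between them in the series-wide list. It was 23455 bp wide, 166 of 5331 by width, but its score of 0.845 ranked 2337. Each replicate called it in 3 pieces whose scores lay between 0.618 and 1.11 (replicate 1) and between 0.521 and 1.02 (replicate 2). Another region singled out afterwards, from 17834576 to 17844412, stood apart from the rest, with gaps of 36.4 and 48.4 kb around it in replicate 1 and of 38.4 and 42.1 kb in replicate 2. It scored 1.76 in the series-wide list and ranked 371 there, 328 in replicate 1 and 195 in replicate 2. Its lower edge lay 1988 bp further in in replicate 2 than in replicate 1, the largest edge shift of any member that had a single counterpart.

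**Figure D2:**
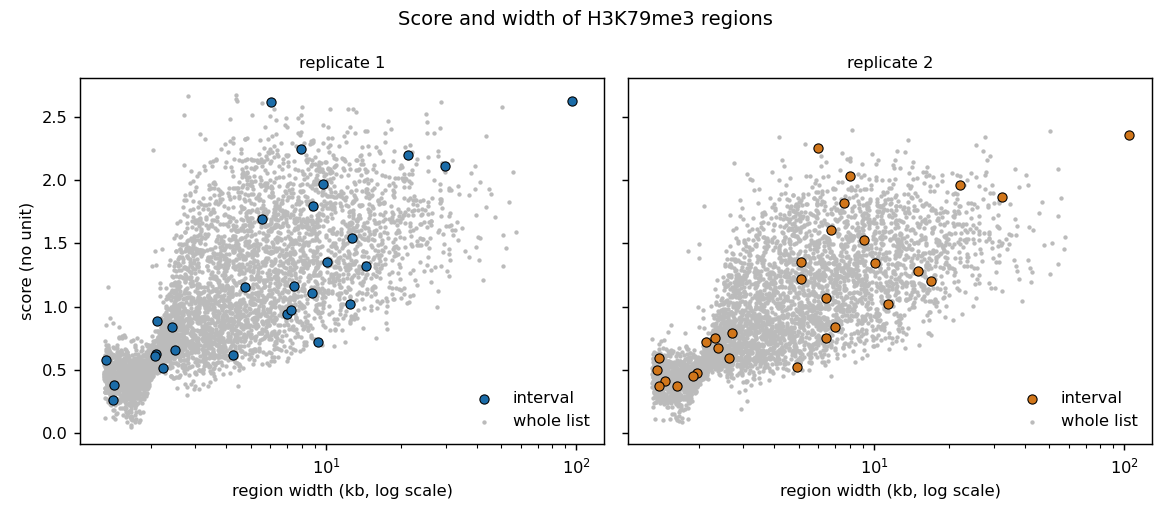
Score without a stated unit (vertical axis) against region width in kb on a log scale (horizontal axis) in each replicate, with members of the interval as large points and the whole list as small grey points. The widest member stands apart on the right in both replicates, and members otherwise run over most of the range of the list, with scores of 0.264 to 2.62 (replicate 1) and 0.371 to 2.36 (replicate 2).

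Most series-wide members met a region in each replicate list. The series-wide list was made from the same 2 replicates, so such overlap is partly built in and is no independent check. Among the 27 series-wide members, 23 (85.2%) overlapped a region in each replicate, against 3997 of 5331 (74.98%) in the whole list and 781 of 1038 (75.2%) on 3L. Of these 23, 16 were a single piece in both replicates. Over the 23, the share of a region's length covered by both replicates jointly had a median of 93.2%, and was 68.2% at the least. Replicate 1 divided 4 of the 27 into several pieces and replicate 2 divided 5, shares of 14.8 and 18.5%, against 9.96 and 8.53% in the whole list. These shares make no allowance for width. The 27 had a median width of 6121 bp, against 3603 bp in the whole series-wide list.

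The 4 members without a region in both replicates were narrow and scored low. The region from 17532686 to 17534758 (score 0.381) had a piece of 1324 bp with a score of 0.580 in replicate 1 and none in replicate 2. The region from 17886272 to 17888130 (score 0.342) had a piece of 1891 bp with a score of 0.451 in replicate 2 and none in replicate 1. Neither replicate had a region at 17734018 to 17735434 (1417 bp, score 0.330) or at 17800762 to 17801962 (1201 bp, score 0.247). The first of these is the sole region inside the long gap, and the other is narrower than any region of the replicate lists, whose minimum was 1301 bp in both. The remaining 16 series-wide members, with a region in both replicates, were 1503 to 19889 bp wide (median 4056 bp) and scored 0.243 to 1.63 (median 0.836), ranking from 587 to 5083. The widest of them, at the upper edge, ran from 18084578 to 18104466 and crossed the end of the interval, with a width of 19889 bp and a score of 1.16. Low scores were not confined to the 4, since the lowest score among members met by both replicates was 0.243.

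Inside the interval the replicate lists shared 269.9 kb of the 288 kb covered in either, a Jaccard index (shared length over length in either) of 0.936. The index was 0.898 in the 500 kb below the interval and 0.857 in the 500 kb above it. These values make no allowance for covered length, which in either replicate list was only 113 kb below and 20.3 kb above. Over 38 windows of the same length on 3L the median was 0.887 and the upper quartile 0.914. Among these the interval came 4 of 39 places. Inside its widest region alone the index was 0.988. In the whole interval, replicate 2 alone covered 11.4 kb and replicate 1 alone 7.18 kb. Among 17 pairs of regions that met only each other, the edges differed by a median of 116 bp, and 25 of 34 edges (73.5%) agreed within 200 bp. Over the 3533 such pairs on the 5 large arms the median was 92 bp and the share 72.4%. The score was lower in replicate 2 in 13 of the 17 pairs, and in 2962 of the 3533 over the large arms, so scores are compared here by rank within a list.

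The locus was more densely covered than the 500 kb on each side taken as a whole. Mean coverage was 46.5 ± 0.497% in the interval, 21.5 ± 0.221% in the 500 kb below it and 3.77 ± 0.394% in the 500 kb above it (SD, n = 2 each). The difference between the interval and both flanks together was 33.9 ± 0.804 percentage points (SD, n = 2), which describes the interval as it was picked and has no test. It was 19.3 percentage points against flanks of 1 Mb. The flanks differed in kind. Below the interval the nearest 150 kb were covered to between 46.7 and 55.9% in bins of 50 kb. That is no less than the mean of the interval, so dense coverage ran on below its lower edge. Farther out came region-free stretches of 186 and 94.9 kb in replicate 1. Above it, regions ended soon, and a region-free stretch of 433 kb began at 18179137 in replicate 1 and at 18179127 in replicate 2. At the ends of the interval itself, the nearest series-wide regions left out were 1321 bp wide with a score of 0.376 on the lower side, and 7457 bp wide with a score of 1.11 on the upper side.

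**Figure D3:**
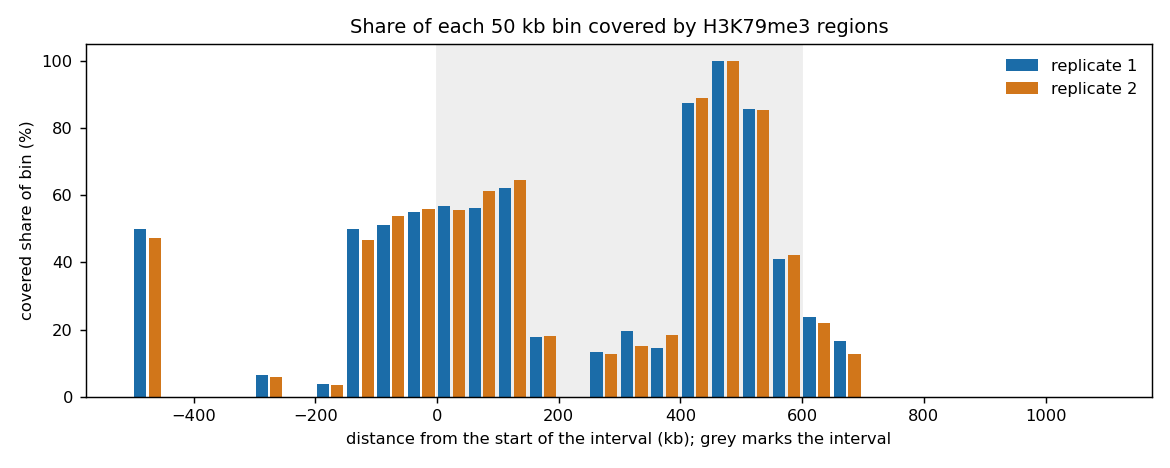
Share of each 50 kb bin covered by regions, in percent (vertical axis), by distance from the start of the interval in kb (horizontal axis), in replicate 1 and replicate 2, with the interval shaded. Coverage reaches 100% in both replicates in the bin from 450 to 500 kb and is 0 in both in the bin from 200 to 250 kb.

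Within the interval, coverage ran over the whole possible range. Of 12 bins of 50 kb, 3 were covered to more than 80% in both replicates and 1 held no region in either. The 3 lie side by side from 400 to 550 kb, and the widest region reaches into each, so they are not 3 separate observations. On the same grid, the large arms had 66 of 2373 bins above 80% (2.78%) and 601 bins free of regions in both replicates (25.3%). The bin from 450 to 500 kb inside the interval was the sole bin on that grid that both replicates covered completely. It lies wholly within the widest region, so this follows from the width of that region and is not a separate observation. The replicates differed by a median of 1.23 percentage points per bin and by at most 4.96, with replicate 2 higher in 6 bins, replicate 1 in 4 and no difference in 2.

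Against 38 windows of the same length laid end to end along 3L and not touching the interval, the locus ranked near the top by coverage. In replicate 1 it came 3 of 39 places, with 46.2% against a window median of 23.0%, and in replicate 2 it came 2 of 39, with 46.9% against 22.8%. The window from 3000006 to 3600006 was covered more in both replicates (48.7 and 47.7%), and the one from 8400015 to 9000015 in replicate 1 alone (46.8%, and 44.9% in replicate 2). With 2.44% of the length of 3L, the interval held 4.68% of the arm's covered length in replicate 1 and 4.85% in replicate 2. By number of regions it came 14 of 39 in replicate 1, with 28 against a window median of 25, and 6 of 39 in replicate 2, with 30 against 23. The widest region inside the interval measured 96079 bp in replicate 1 and 103875 bp in replicate 2, against 55660 and 55825 bp at most in any window. Since the interval holds the widest region of each list, this is not a separate observation. When each place was counted without its own widest region, the interval had 30.2 and 29.6% left and came 8 of 39 in replicate 1 and 7 of 39 in replicate 2. Its longest region-free stretch, 128 kb in both replicates, was near the window medians of 123 and 127 kb. In the series-wide list, where a region of 1417 bp lies in that gap, the longest stretch was 71.0 kb. The window median there was 114 kb, and the interval came 35 of 39 from the longest.

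**Figure D4:**
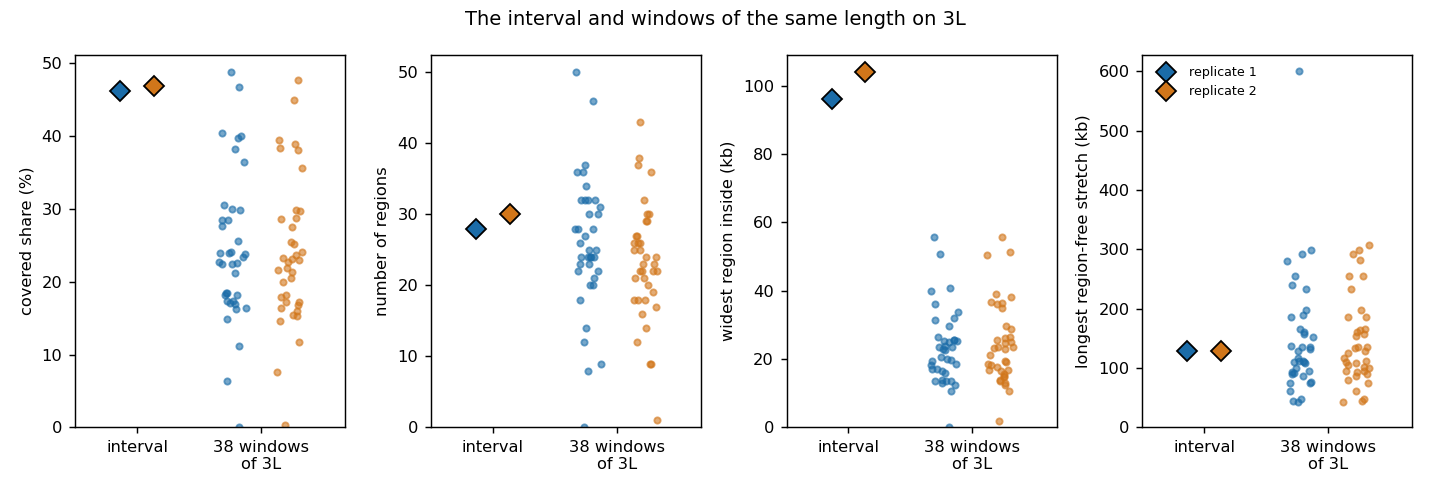
Covered share in percent, number of regions, widest region inside in kb and longest region-free stretch in kb (vertical axes) for the interval (diamonds, left) and for 38 windows of the same length on 3L (dots, right), in replicate 1 and replicate 2. The interval lies above all windows in the widest region inside, near the top in covered share, and mid-range in the longest region-free stretch.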

How the data were processed

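H3K79me3 ChIP-seq regions were taken from 3 lists deposited by the authors, 1 for each of the 2 ChIP replicates and 1 series-wide. Each entry has a first and last base (1-based, FlyBase release 5, per the file headers) and, as deposited, a score with no stated scale. Bowtie 0.12.7 appears among the tools of the submitters' processing notes. Not given in the sources used here are the caller, its threshold, how the input was used and how the replicates were combined. The lists hold no read counts, so depth is unknown and no interval that needs it is given. Depleted entries (2, 0 and 7 in the lists) were left out, and none lay in the interval.

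Members are enriched entries that overlap the interval by at least 1 bp. Covered length was counted after joining overlapping entries and clipping them to the place measured. Ranks are within 1 list. Values over replicates are mean ± SD; no label ties them to separate batches of larvae, so this SD may be only technical. No test was made. Members, measures and alternatives were chosen with earlier results of these data known. Given in full were the 5 members with the highest score, the 3 widest and any without a piece in one replicate, in the series-wide list; others are summarised. Gene order is from RefSeq on release 6. Alternatives were the series-wide list, each replicate alone, the top 50% of each list by score, merging within 500 bp, other flanks, other windows and a stricter overlap. Overlap counts were checked base by base on simulated data. Python 3.11.15, numpy 2.4.6, pandas 2.3.3 and matplotlib 3.10.9 were used.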

Additional observations from a re-analysis of the deposited data

How the results depend on the processing

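Depth behind the lists is unknown, and only 2 libraries give a spread. With 2 replicates, a single replicate always lies within 1 SD of their mean, so the single-replicate ranges below show no stability. Coverage of the interval was 46.5%, against 49.1% in the series-wide list and 39.9% with the top 50% of each list by score, and lay between 46.2 and 46.9% in single replicates. The difference from the flanks was 33.9 percentage points, 35.1 in the series-wide list, 30.5 with the top 50%, 19.3 with flanks of 1 Mb, 25.1 against the lower flank alone and 42.8 against the upper flank alone. It lay between 33.3 and 34.5 in single replicates. By coverage, 96.1% of the windows of 3L lay below the interval on average over the replicates. This became 100% for windows with a shifted start and 99.3% for windows every 100 kb, which overlap one another. It was 96.6% for 194 windows of the 5 large arms, and 82.9% when each place lost its own widest region. The number of regions, 29 on average, fell to 15.5 with the top 50%, a subset defined by score. It fell to 22 when regions less than 500 bp apart were merged, so the count depends in part on short breaks. No paired analysis was possible because the input samples, which share replicate numbers with the ChIP samples, were not analysed here and no result comes from a test.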
